A study of Rattus norvegicus with 4 samples.

Results

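The fatty acid binding proteins were followed in oxyntic mucosa scraped from the corpus of the rat stomach, where acid is made, after treatment with octreotide LAR or its vehicle. The members were all probe sets whose platform gene symbol was one of Fabp1 to Fabp7, which gave 7 genes of 10411 named on the chip, each with 1 probe set. Octreotide is a stable mimic of somatostatin, a peptide hormone that holds back acid secretion, and the LAR form frees it slowly from a depot. All animals were female Sprague-Dawley rats of 8 weeks, which were fasted overnight and anaesthetised with fentanyl, haloperidol and midazolam before the tissue was taken at 21 days. Octreotide LAR was given at 5 mg per animal, and the controls received the matching volume of LAR vehicle. RNA of 8 vehicle rats was pooled on 1 Affymetrix RAE230A chip, and RNA of 6 treated rats was pooled by 2 on 3 chips, called pools 1 to 3 here. The vehicle group is thus 1 measurement with no error of its own, and a peculiarity of that pool cannot be told apart from an effect of treatment. Groups were taken from the sample titles, since octreotide LAR also appears in the source name of the vehicle chip.

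Fatty acid binding proteins are small cytosolic proteins that fold into a barrel around a single long-chain fatty acid or a related ligand and carry it between membranes, enzymes and nuclear receptors. They are named after the tissue in which each was first found. Fabp1 is the liver form and Fabp2 the intestinal form, and both serve the absorptive enterocyte. Fabp3 is the heart form of oxidative muscle and of other tissues that burn fatty acids, Fabp4 is the adipocyte form and is also made by macrophages and capillary endothelium, and Fabp5 is the epidermal form of stratified epithelia. Fabp6 carries bile acids in the ileum, and Fabp7 is the brain form of glia.

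The sequences before the start sites of Fabp2, Fabp1 and Fabp3 are shown because Fabp2 had the smallest p of the family, Fabp1 is its partner in the enterocyte, and Fabp3 differed from both in base composition. They are the 250 bases upstream of the annotated start in the RefSeq promoter table of the GRCr8 assembly, which held 5 of the 7 members. Fabp4 and Fabp5 had no entry. Capitals mark the motifs searched on both strands, namely a pair of TGNNCT motifs separated by 1 base, which is the layout read by HNF4 and by PPAR with RXR, the GATA motif AGATAA, and the TATA motif TATAAA. The 3 windows lie on the plus strand at chr2:213724379-213724628 for Fabp2, chr4:104749090-104749339 for Fabp1 and chr5:147935875-147936124 for Fabp3.
Fabp2: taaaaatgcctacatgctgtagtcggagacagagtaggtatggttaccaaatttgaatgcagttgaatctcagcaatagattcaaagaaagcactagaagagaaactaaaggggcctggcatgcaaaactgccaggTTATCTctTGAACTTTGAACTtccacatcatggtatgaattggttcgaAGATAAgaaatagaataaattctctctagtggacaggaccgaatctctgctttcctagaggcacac
Fabp1: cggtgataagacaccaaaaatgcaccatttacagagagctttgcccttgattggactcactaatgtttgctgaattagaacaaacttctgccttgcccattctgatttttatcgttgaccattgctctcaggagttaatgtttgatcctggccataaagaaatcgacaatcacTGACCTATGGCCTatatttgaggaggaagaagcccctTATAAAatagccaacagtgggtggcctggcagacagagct
Fabp3: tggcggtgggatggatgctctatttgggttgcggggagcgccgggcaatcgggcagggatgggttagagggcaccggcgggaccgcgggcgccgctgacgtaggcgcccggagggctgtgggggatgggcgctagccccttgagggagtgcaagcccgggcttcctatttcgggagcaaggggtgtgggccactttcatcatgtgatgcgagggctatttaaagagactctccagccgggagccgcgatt

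The paired motif was found as TGAACTTTGAACT in the Fabp2 window, from 106 to 94 bases before the start, and as TGACCTATGGCCT in the Fabp1 window, from 77 to 65 bases before it. Of 33469 RefSeq windows of the same length, 2.23% held the pair. The Fabp2 window also held AGATAA once on each strand, a motif present in 10.3% of all windows. TATAAA was found in the windows of Fabp1 and Fabp6, and in 12.9% of all windows. None of these letters occurred in the windows of Fabp3 and Fabp7. GC content was 40.4% for Fabp2, 43.2% for Fabp1 and 65.6% for Fabp3, against a median of 51.2% over all windows. Such matches describe the letters only. In the annotation order Fabp4 lies between Fabp12 and Fabp9, which belong to the same family.

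On the chips, Fabp2 and Fabp5 were higher on all 3 treated pools than on the vehicle chip, Fabp3 stayed near the vehicle level, Fabp4 was high on pool 1 alone, and Fabp1, Fabp6 and Fabp7 were dim and went both ways. Signals are the deposited linear intensities, and differences are log2(signal + 16) on treated chips minus that on the vehicle chip. A probe set was tested when its mean signal over the 4 chips reached the 40th percentile, a signal of 149.7, and 5 of the 7 members did so. None of these 5 passed the threshold of 0.05 for the limma p adjusted over all 9520 probe sets tested, and 2 of them, Fabp2 and Fabp5, had an unadjusted p under 0.05. Over all tested probe sets, 7 were called higher, which is 0.0735%, namely those of Lgals4, Lgals7, Loricrin, Krt1, Krt10, Sprr3 and H1f4, and 1 was called lower, that of Hdc. H1f4, a linker histone, had 9.3 on the vehicle chip and 153.4, 253.8 and 351.2 on the pools (limma adjusted p = 0.0315). On the vehicle chip H1f4, Lgals7 at 22.4 and Sprr3 at 139.4 lay under 149.7, so they passed the filter only through their treated signals. A mean over 3 treated chips and 1 vehicle chip favours such genes, so the split of calls is no result of its own. With quantile normalization the split of calls was 3 higher and 1 lower. The unadjusted p lay under 0.05 for 440. Signals of different probe sets depend on their probes, so no member's level is set against another's.

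**Figure D1:**
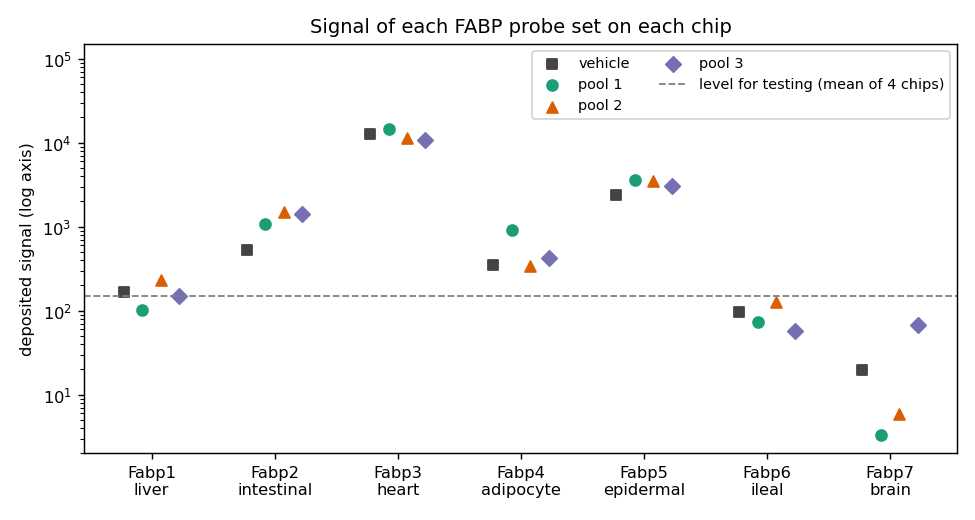
Deposited signal (log axis) of the 7 FABP probe sets on the vehicle chip (squares) and on pools 1 to 3 (circles, triangles, diamonds); the dashed line marks the signal of 149.7 that the mean of the 4 chips had to reach for testing. For Fabp2 and Fabp5 all 3 pools lie above the square, for Fabp4 pool 1 stands apart at 922.1, and Fabp6 and Fabp7 lie under the line in the mean.

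Fabp2, the intestinal form, measured 533.2 on the vehicle chip and 1081.8, 1488.1 and 1423.2 on pools 1, 2 and 3. Every treated pool was thus above the vehicle chip, and pool 1 was the lowest of the 3. The treated mean was 1331 ± 218 (SD, n = 3), 2.43-fold the vehicle value, and the log2 difference was 1.28 (95% interval 0.80 to 1.76). The limma adjusted p was 0.0634, just over the threshold, and the probe set had the 10th smallest p of the 9520 tested. The outcome turned on the filter for dim probe sets and on how the spread was moderated. With the filter set on the mean of the log2 values instead, at a signal of 144.7, the limma adjusted p was 0.0475 and 0.0945% of tested probe sets were called higher, Fabp2 among them. With no filter the adjusted p was 0.556, and with a filter at the 60th percentile it was 0.0317. At the unchanged filter it was 0.417 without a trend in the moderation and 0.0269 with robust moderation, 0.146 with quantile normalization, 0.0894 with centring on the 75th percentile, and 0.0582 and 0.0734 with a pseudocount of 1 and 64. Over 12 alternatives it passed in 6, with a log2 difference between 1.195 and 1.42. Among those 6 were the 3 fits that left out a treated pool, in which calls over all probe sets also rose. Another was the filter on the mean of the log2 values, which was added after the data were seen. Leaving out pool 1, 2 or 3 gave limma adjusted p of 6.12e-06, 0.000953 and 0.00658. These 3 fits share the vehicle chip, and their spread rests on 2 treated chips each.

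**Figure D2:**
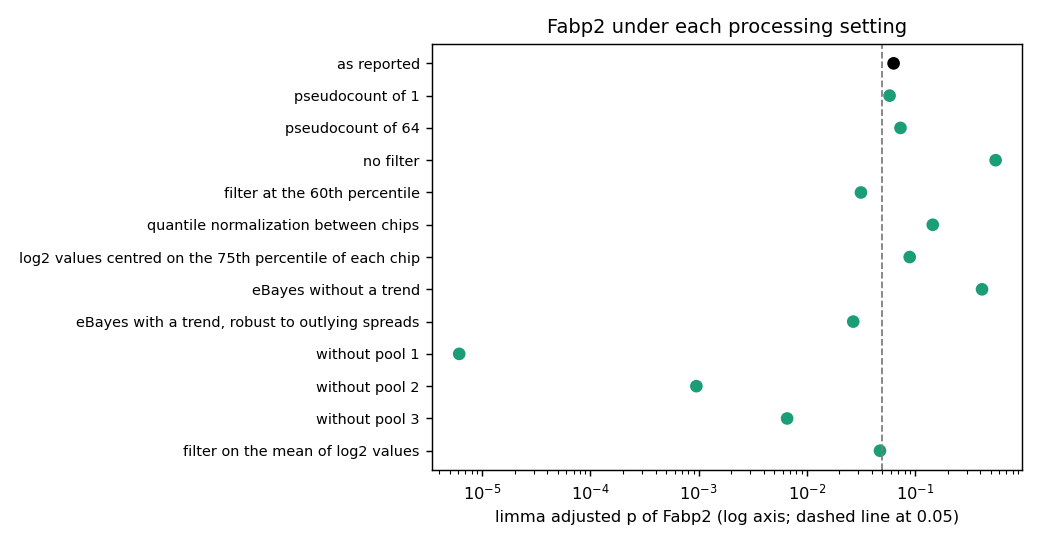
Limma adjusted p of Fabp2 (log axis) as reported (black, 0.0634) and under 12 alternative settings (green), with the threshold of 0.05 dashed. The points fall on both sides of the line, from 6.12e-06 without pool 1 to 0.556 without a filter, while the log2 difference stayed between 1.195 and 1.42.

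Markers of the absorptive and goblet epithelium of the intestine, in which Fabp2 is typically found, were examined beside it. Of the 26 genes of that list 20 were on the chip and 9 passed the filter. Of these 9, 1 was called higher, where 0.0735% of all tested probe sets were, and none lower. The called gene was Lgals4, a galectin of digestive epithelia, with 3199.7 on the vehicle chip and 6203.6, 7232.5 and 6344.1 on pools 1 to 3 (limma adjusted p = 0.0315). The summed signal of the list was 8054.2 on the vehicle chip and 10890.9 to 13046.1 on the treated chips; without Lgals4 it was 4854.5 on the vehicle chip and 4687.3, 5813.6 and 5283.5 on the pools. The median log2 difference over the tested genes was 0.13, against -0.003 over all tested probe sets. Fcgbp, a goblet cell mucus protein, had 239.4 against 401.6, 305.2 and 376.5, and Guca2b, the hormone uroguanylin, had 286.1 against 465.2, 258.1 and 449.4, and neither passed. The tested brush-border enzymes lay near their vehicle values, with the aminopeptidase Anpep at 1920.8 against 1743.8, 2556.4 and 2085.2 and the dipeptidyl peptidase Dpp4 at 527.4 against 487.7, 515.5 and 543.7. No marker was at 0, and 11 of the 20 lay under the filter on average. Of these, 3 were below the vehicle chip on every pool: the glucose transporter Slc5a1, with 164.4 against 29.1, 140.3 and 12.7, the peptide transporter Slc15a1, with 41.9 against 19.1, 22.5 and 4.2, and the trehalase Treh, with 22.2 against 8.8, 13.1 and 12.4. Others under the filter were above the vehicle chip on every pool: the intestinal alkaline phosphatase Alpi, with 13.3 against 25.3, 66.0 and 13.7, and the mucin Muc13, with 18.7 against 40.3, 47.4 and 189.7. Cdh17, the liver-intestine cadherin, had 118.2 against 114.0, 137.2 and 96.2 and went both ways. Cdx2, the intestinal master regulator, had 209.7 against 156.8, 242.9 and 176.2. The part of intestinal-type cells in the Fabp2 difference was not tested. In scraped tissue a change in the number of cells of a type and a change in RNA per cell cannot be told apart.

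Fabp1, the liver form that accompanies Fabp2 in enterocytes, had 168.4 on the vehicle chip and 102.5, 229.5 and 150.8 on pools 1, 2 and 3. The vehicle value lay inside the treated range. The treated mean was 160.9 ± 64.1 (SD, n = 3), and the log2 difference was -0.12, its 95% interval reaching from -1.12 to 0.87 (limma adjusted p = 0.9998), and without pool 1 the difference was 0.13. Treated pools differed by 1.05 on the log2 scale for Fabp1, a wider range than for 96.5% of tested probe sets. Fabp6, the ileal bile acid carrier, had 96.5 on the vehicle chip and 74.1, 125.6 and 58.1 on the pools and was not tested under the filter; without it, its log2 difference was -0.20, its interval reaching from -1.503 to 1.11 (limma adjusted p = 0.9996). Genes of ileal bile acid handling were mostly dim as well, with 5 of 8 on the chip and 1 above the filter, Nr0b2, a nuclear receptor induced by bile acids, at 647.9 on the vehicle chip and 725.8, 769.6 and 607.4 on the pools. Fabp1 and Fabp6 were thus measured too dimly and too variably to place them above or below vehicle.

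Fabp3, the heart form, had 12620.0 on the vehicle chip and 14485.6, 11301.3 and 10906.2 on pools 1, 2 and 3. Pool 1 was above the vehicle chip and the other 2 pools were below it. The treated mean of 12231 ± 1962 (SD, n = 3) lay -0.06 from the vehicle chip on the log2 scale, the 95% interval reaching from -0.44 to 0.32 (limma adjusted p = 0.9998), and the direction turned to 0.02 without pool 3. The interval includes 0, so these chips do not place Fabp3 above or below vehicle, and changes of the sizes inside it are not excluded. Markers of striated muscle, the classic site of Fabp3, were dim: 15 of 17 were on the chip and 3 passed the filter, none of them called. Myoglobin, Mb, had 22.4 on the vehicle chip and 16.6, 46.4 and 16.3 on the pools. Cardiac troponin I, Tnni3, had 32.9 against 8.1, 68.3 and 54.8. The 3 tested genes lay close to their vehicle values: skeletal actin, Acta1, had a log2 difference of 0.12, fast troponin I, Tnni2, of 0.15 and muscle creatine kinase, Ckm, of 0.04.

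Enzymes that use fatty acids as fuel, the pathway Fabp3 is known to feed, showed no called gene. Of 31 genes of fatty acid oxidation and ketone synthesis 28 were on the chip and 25 passed the filter, 12 of which were below the vehicle chip on all 3 pools and 3 above it. For all tested probe sets these shares were 24.0% below and 25.0% above. The list's median log2 difference was -0.10, with -0.04, -0.09 and -0.13 on pools 1, 2 and 3. Acadm, the medium-chain acyl-CoA dehydrogenase, had 4396.2 on the vehicle chip and 3589.0, 3484.3 and 3482.6 on the pools, a log2 difference of -0.32 (limma adjusted p = 0.9998). Eci2, an enoyl-CoA isomerase, had 855.5 against 613.6, 592.3 and 689.0, and Slc25a20, the mitochondrial carnitine carrier, had 157.0 against 341.6, 215.7 and 230.4. Each of these 3 genes lay on 1 side of the vehicle chip, yet none passed. Cpt1a, which commits fatty acids to mitochondrial entry, was at 1765.2 on the vehicle chip and 1886.9, 1736.1 and 1693.7 on the pools, a log2 difference of 0.004.

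Fabp4, the adipocyte form, had 346.2 on the vehicle chip and 922.1, 341.0 and 428.3 on pools 1, 2 and 3. Pool 1 was high, while pool 2 lay just below and pool 3 above the vehicle chip. The treated mean was 563.8 ± 313 (SD, n = 3), and the log2 difference of 0.55 had a 95% interval from -0.33 to 1.43 (limma adjusted p = 0.9998). Without pool 1 the difference was 0.14, and without pool 2 or 3 it was 0.83 or 0.68, so 1 pool set its size. The treated pools spanned 1.39 on the log2 scale, more than for 98.8% of tested probe sets.

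Adipocyte markers were therefore examined pool by pool. Of 17 such genes 14 were on the chip and 10 passed the filter, none called, and 7 of the 10 had their highest signal on pool 1, where 26.4% of all tested probe sets had theirs. Cfd, the adipokine adipsin, had 216.8 on the vehicle chip and 363.5, 86.3 and 197.3 on the pools. Scd, the stearoyl-CoA desaturase, had 510.7 against 1012.6, 273.8 and 741.8, and Car3, a carbonic anhydrase abundant in fat, had 585.5 against 845.8, 249.7 and 458.5. These 3 genes, picked after their values were seen, were highest on pool 1 and lowest on pool 2, as Fabp4 was. Pck1, under the filter, had 124.9 against 235.7, 85.1 and 99.4 and was also highest on pool 1 and lowest on pool 2. The following markers of the list followed Fabp4 in part or not at all. Lpl, lipoprotein lipase, was below the vehicle chip on every pool and lowest on pool 1, with 5240.7 against 4730.6, 4877.4 and 4970.2. Lipe, the hormone-sensitive lipase, had 40.7 against 278.8, 117.4 and 171.4 (limma adjusted p = 0.584), and Cidea had 224.8 against 293.2, 263.1 and 273.0. Both were above the vehicle chip on every pool, and among the pools both were highest on pool 1 and lowest on pool 2. Lipe lay under 149.7 on the vehicle chip and reached its mean of 152.07 only through its treated signals. Its place among the tested genes is thus no support of its own. The amine oxidase Aoc3 was also above the vehicle chip on every pool, with 1132.9 against 1429.8, 1305.9 and 1489.3 (limma adjusted p = 0.9998). Plin1, the perilipin of mature fat cells, had 90.8 against 86.5, 140.0 and 18.6, and Lep, leptin, had 14.4 against 16.4, 26.6 and 13.0. Both were dim and highest on pool 2, where Fabp4 was lowest. The list's summed signal was 10798.5 on the vehicle chip and 12039.3, 9851.5 and 10508.0 on the pools. Its median log2 difference was 0.44, -0.06 and 0.09 on pools 1, 2 and 3.

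Pool 1 also had the highest signal for 11 of the 12 tested smooth muscle markers, whose sum was 83352.3 on the vehicle chip and 98774.4, 83489.6 and 76470.8 on the pools. Smoothelin, Smtn, had 1087.9 against 1760.8, 1219.9 and 1230.6, Synpo2, an actin-bundling protein, had 1499.1 against 2097.7, 1986.0 and 1460.5, and Mylk, the myosin light chain kinase, had 9052.6 against 10973.9, 9078.3 and 10640.6; none was called. Endothelial markers, the other known source of Fabp4 beside macrophages, had sums of 4231.8 on the vehicle chip and 4529.7, 4547.8 and 4243.0 on the pools. Among them Gpihbp1, which holds lipoprotein lipase on capillaries, had 253.2 against 487.6, 249.1 and 335.0. The VEGF receptors Kdr and Flt1 had log2 differences of 0.23 and -0.25, and neither was called. Macrophage markers had sums of 2472.5 on the vehicle chip and 2441.6, 2210.9 and 3081.6 on the pools, so that list was highest on pool 3 and not on pool 1. Of the complement genes that macrophages make, C1qb had 138.1 against 187.3, 225.3 and 297.5 and C1qa 241.2 against 352.7, 221.7 and 450.0. C1qc had 293.2 against 207.8, 236.5 and 411.4, above the vehicle chip on pool 3 alone. Csf1r, the receptor that sustains macrophages, had 356.0 against 327.7, 314.5 and 369.4. None of these was called. Under the filter, Cd68 and Cd14 were below the vehicle chip on every pool and Aif1 went both ways. What part any of these cell types had in the Fabp4 signal of pool 1 was not tested.

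**Figure D3:**
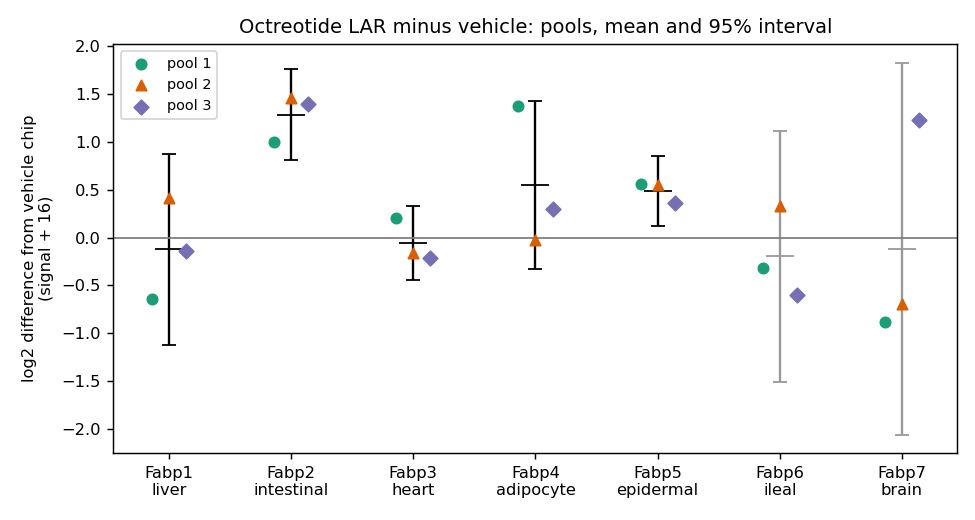
Log2 difference from the vehicle chip for each FABP probe set on pools 1 to 3 (symbols), with the treated mean (horizontal bar) and the limma 95% interval (whiskers; grey for Fabp6 and Fabp7, from the fit without a filter). The Fabp2 and Fabp5 intervals lie above 0, from 0.80 to 1.76 and from 0.12 to 0.85, and the other 5 include 0. The intervals are not adjusted for the number of probe sets. Neither Fabp2 nor Fabp5 passed the threshold (limma adjusted p = 0.0634 and 0.949).

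Fabp5, the epidermal form, had 2410.2 on the vehicle chip and 3556.8, 3521.2 and 3096.4 on pools 1, 2 and 3. All 3 pools were above the vehicle chip and close to one another. The treated mean was 3391 ± 256 (SD, n = 3), 1.40-fold the vehicle value, and the log2 difference was 0.49, its 95% interval reaching from 0.12 to 0.85 (limma adjusted p = 0.949, unadjusted p = 0.0133). It did not pass in any of 12 alternatives, in which the difference ran from 0.45 to 0.55. With Fabp2, it made 2 of 5 tested members above the vehicle chip on every pool, where 25.0% of all tested probe sets were. No tested member was below on every pool, against 24.0% of all tested probe sets. The RefSeq gene table also lists 2 Fabp5 pseudogenes, and any part of theirs in this signal was not tested.

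Fabp5 is best known from keratinising squamous epithelium, whose genes were examined beside it. Of 25 such genes 16 were on the chip, 13 passed the filter and 5 were called higher, none lower: Loricrin, Krt1, Krt10, Sprr3 and Lgals7. Over all tested probe sets, 0.0735% were called higher. Loricrin, the main cornified envelope protein, had 204.7 on the vehicle chip and 1274.7, 1041.2 and 890.3 on pools 1 to 3 (limma adjusted p = 0.00194). Krt1 and Krt10, a pair of suprabasal keratins, had 219.8 against 1287.8, 1069.3 and 871.8 and 296.7 against 1200.1, 1423.0 and 1090.5 (limma adjusted p = 0.00194 for each). The basal keratin Krt5 had 100.2 against 443.0, 297.0 and 350.3 (limma adjusted p = 0.0967). Krt5 and the other 7 tested genes were not called. Of the 13 tested genes, 12 lay above the vehicle chip on every pool, where 25.0% of all tested probe sets did. The exception was Sbsn, suprabasin, below the vehicle chip on every pool, with 1443.6 against 1366.8, 1278.9 and 1122.3. Evpl, envoplakin, had a log2 difference of 0.24. Under the filter, Tgm1, the keratinocyte transglutaminase, had 61.1 against 48.2, 97.0 and 66.8 and went both ways, as Krt4 did. Ivl, also under it, had 11.4 against 68.9, 39.6 and 20.5. The list's sum was 3794.6 on the vehicle chip and 11714.8, 8859.1 and 7654.4 on the pools. Its median log2 difference was 1.71, against 0.49 for Fabp5. Many of these genes were dim on the vehicle chip and passed the filter through their treated signals, so their counts and median are no support of their own, and without a filter none was called. Whether squamous cells had a part in the Fabp5 signal was not tested.

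Fabp7, the brain form of glia, had 19.5 on the vehicle chip and 3.3, 5.9 and 67.1 on pools 1, 2 and 3. These are dim signals that went both ways, and no test under the filter was made. Without the filter the log2 difference was -0.12, its 95% interval reaching from -2.06 to 1.82 (limma adjusted p = 0.9997). Of 9 glial markers 6 were on the chip and 1, S100b, passed the filter, with 205.6 on the vehicle chip and 267.6, 132.4 and 188.4 on the pools. Sox10, the transcription factor of enteric glia and Schwann cells, had 66.3 against 126.5, 47.1 and 138.6.

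The intestinal, heart, adipocyte and epidermal forms were then compared within each chip, since the ratio of a pair of probe sets on 1 chip depends little on how that chip was scaled. Relative to the vehicle chip, the log2 ratio of Fabp2 to Fabp3 was higher by 0.80, 1.61 and 1.60 on pools 1, 2 and 3. The ratio of Fabp2 to Fabp5 was higher by 0.44, 0.91 and 1.03, and that of Fabp3 to Fabp5 was lower on all pools, at -0.36, -0.70 and -0.57. In these 3 pairs the pools moved the same way, and on each pool Fabp2 lay farthest from the vehicle chip, Fabp5 less far and Fabp3 least. The third pair follows from the other 2 and all share 1 vehicle chip, so their shared sign is a description only. Fabp2 and Fabp5 set against Fabp4 changed sign between pools. The ratio of Fabp2 to Fabp4 was at -0.37 on pool 1 and at 1.47 and 1.095 on pools 2 and 3, and that of Fabp4 to Fabp5 was at 0.815, -0.565 and -0.065. Fabp3 to Fabp4 was lower on all pools, at -1.17, -0.14 and -0.505, with the widest gap on pool 1. With 1 chip against 3 there are 4 arrangements, so a two-sided exact permutation test over the chips cannot give a p below 0.25. Over the 6 pairs the exact p ran from 0.25 to 1.0, and the Benjamini-Hochberg adjusted values from 0.5 to 1.0.

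**Figure D4:**
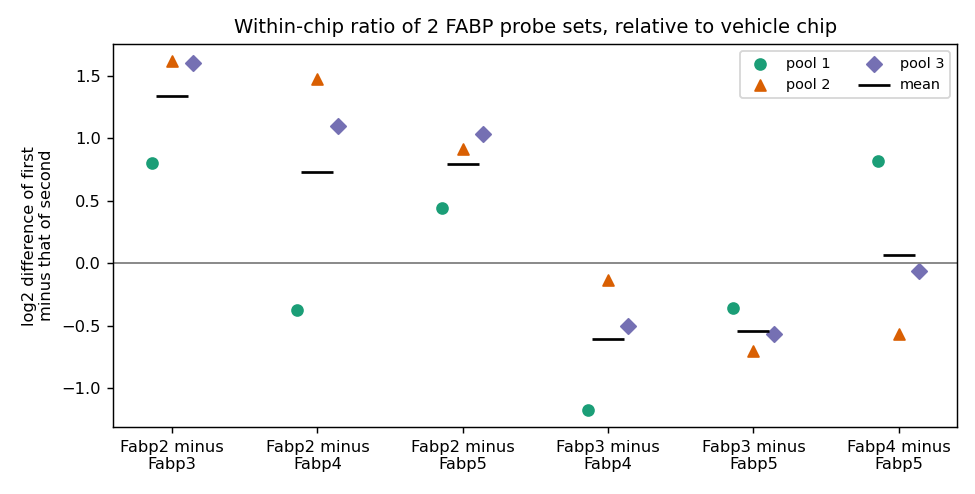
Change of the within-chip log2 ratio of 2 FABP probe sets relative to the vehicle chip, for 6 pairs, on pools 1 to 3 (symbols) and in the mean (bar). The 3 pairs among Fabp2, Fabp3 and Fabp5 and the pair of Fabp3 and Fabp4 kept 1 sign on all pools, with means of 1.34, 0.79, -0.54 and -0.61, while Fabp2 to Fabp4 and Fabp4 to Fabp5 crossed 0.

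The other genes of fatty acid handling were taken from fixed lists. Among relatives of the family, the retinoid and fatty acid carriers of the same fold, 6 of 9 were on the chip and only Crabp2, a retinoic acid carrier, passed the filter. It had 267.9 on the vehicle chip and 303.0, 399.3 and 374.2 on the pools and was not called. The neighbours of Fabp4 were dim, with Fabp9, the testis form, at 12.2 against 32.2, 8.3 and 28.5, and Fabp12 at 71.5 against 113.4, 61.3 and 52.8. Rbp2, the retinol carrier of enterocytes, had 22.7 on the vehicle chip and 100.0, 9.6 and 5.9 on the pools.

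Of 11 genes of fatty acid uptake at the membrane 7 passed the filter and none was called. Cd36, the fatty acid translocase, had 459.5 on the vehicle chip and 363.3, 482.8 and 552.8 on the pools, and Slc27a4, the main fatty acid transport protein of enterocytes, had 1109.9 against 1277.7, 1258.2 and 1226.8. Got2, the mitochondrial aspartate aminotransferase that also binds fatty acids at the cell surface, had 2856.1 against 2660.8, 2328.1 and 2463.6, and caveolin, Cav1, had 1373.4 against 1595.0, 1406.2 and 1676.9. Of 15 genes that activate or bind acyl-CoA 9 passed the filter and none was called; Acsl5, an acyl-CoA synthetase of the gut, had 1873.2 against 2031.3, 1967.8 and 1845.4. The smallest p of that list belonged to the synthetase Acsl3, with 261.7 against 298.6, 377.5 and 395.1, the thioesterase Acot7, with 557.6 against 865.1, 713.1 and 602.5, and the acetyl-CoA synthetase Acss2, with 954.3 against 879.0, 908.3 and 643.9. Triglyceride synthesis and lipoprotein assembly had 8 tested genes of 19, none called, and a median log2 difference of 0.20. Dgat2, which makes triglyceride from diglyceride, was above the vehicle chip on each pool, at 338.7 against 456.9, 541.3 and 529.8 (limma adjusted p = 0.9998, unadjusted p = 0.0324). Dgat1, the other enzyme of that step, had 741.8 against 933.0, 749.4 and 962.6, and apolipoprotein E, Apoe, had 488.8 against 580.0, 615.6 and 658.0. Apob and Apoa4, apolipoproteins of the chylomicron, were dim, at 92.5 and 13.4 on the vehicle chip and no more than 130.5 and 31.4 on any pool.

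Among 21 nuclear receptors of lipid sensing and their partners 13 passed the filter and none was called. Pparg, the receptor that drives Fabp4 in fat cells, had 230.5 on the vehicle chip and 336.4, 363.0 and 314.4 on the pools, a log2 difference of 0.52 (limma adjusted p = 0.9998). It was above the vehicle chip on all pools but not highest on pool 1, where Fabp4 was. The retinoid receptors Rxrg and Rara had log2 differences of -0.37 and 0.31, with Rxrg at 300.6 against 196.4, 250.8 and 243.0 and Rara at 326.0 against 385.6, 483.2 and 364.4. Ppara had 10.4 against 6.0, 12.6 and 14.4, and Hnf4a, a regulator of absorptive epithelium, had 140.1 against 35.4, 103.9 and 145.8. The list of lipases and lipid droplets had 9 of 18 genes tested and none called. Plin2, the droplet coat protein of most cells, had 474.7 against 362.7, 383.3 and 439.0, below the vehicle chip on every pool and not past the threshold, whereas Plin3 had 1463.5 against 1857.0, 1644.9 and 1731.2 and Plin4 had 277.9 against 414.1, 368.0 and 308.4.

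**Figure D5:**
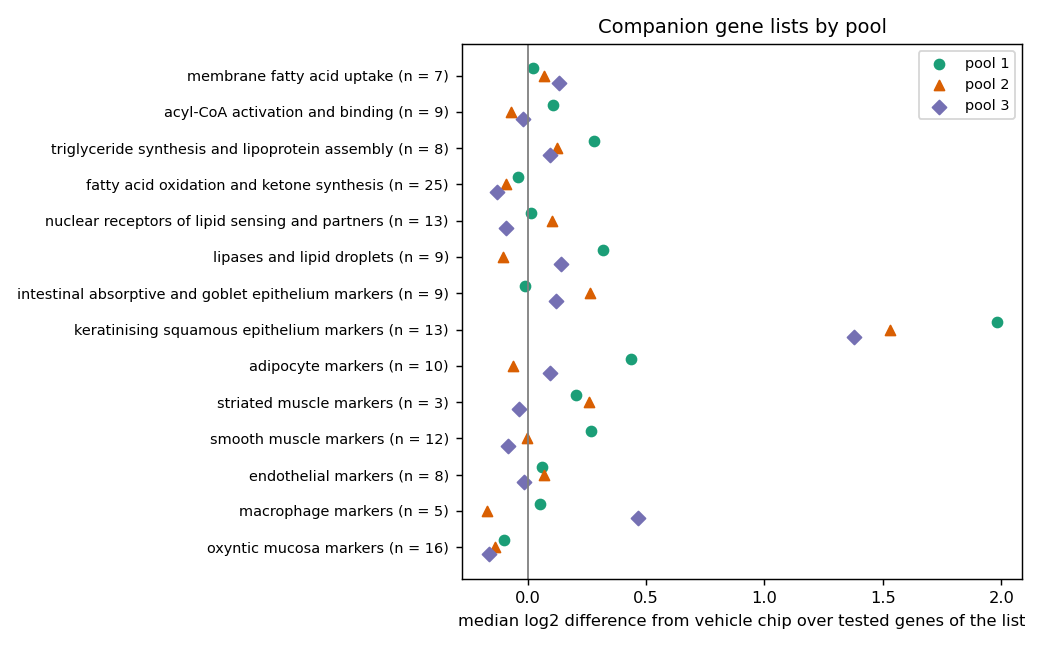
Median log2 difference from the vehicle chip over the tested genes of each companion list with 3 or more tested genes, on pools 1 to 3 (symbols; n is the number of tested genes). The squamous list lies at 1.98, 1.53 and 1.38 on pools 1 to 3, the adipocyte list at 0.44, -0.06 and 0.09, and the fatty acid oxidation list at -0.04, -0.09 and -0.13.

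Markers of the oxyntic mucosa were bright, as the tissue label says: 16 of 18 were on the chip and all 16 passed the filter, with a sum of 315720.0 on the vehicle chip and 294215.5 to 313648.2 on the treated chips. Among them Hdc, the histidine decarboxylase of histamine-storing cells, was called lower, with 3537.3 on the vehicle chip and 1074.6, 1323.2 and 1121.5 on the pools (limma adjusted p = 0.00437). Slc18a2, which loads histamine into vesicles, had 2236.6 against 918.7, 1168.2 and 945.5 (limma adjusted p = 0.0725), and the milk-clotting protease Cym had 19071.1 against 3952.1, 8203.8 and 7560.9 (limma adjusted p = 0.097). The median signal per chip lay between 223.7 and 233.4, and the mean without the highest and lowest 2% between 496.8 and 497.2.

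For each tested member, the 5 genes with the most similar 3 differences from the vehicle chip were listed by root mean square distance among 8080 named probe sets. Nearest to Fabp2 was Nfia, a transcription factor, at a distance of 0.08 on the log2 scale, with 327.7 on the vehicle chip and 627.0, 933.6 and 947.7 on the pools. It was followed by Fxr2 at 0.12, Ints13 at 0.21, Dcun1d2 at 0.23 and Serpinb12 at 0.23, none of which was called. On the vehicle chip Ints13, Dcun1d2 and Serpinb12 lay under 149.7, at 80.3, 78.8 and 89.1. They passed the filter only through their treated signals, so their likeness to Fabp2 is no support of its own. Nearest to Fabp4 was Thrsp, a lipogenic factor of fat and liver, at 0.09, with 132.7 on the vehicle chip and 403.6, 135.0 and 175.2 on the pools; Sfn, Smyd5, Acsf3 and Apc followed at 0.18 to 0.23. Fabp5 had closer neighbours, led by Marcks at 0.006, with 1202.5 against 1772.6, 1757.8 and 1556.6, and then Prkce, Rnf25, Myo5b and Fbxo11 at 0.02 to 0.03. For Fabp3 the nearest were Mrps16, Med17, Tns1, Psmb10 and Dcakd, at 0.02 to 0.03, and for Fabp1 they were Lztfl1, Meg3, Cadm1, Gosr1 and Tyw5, at 0.07 to 0.09. Of the genes near Fabp4, Thrsp, Sfn and Apc also lay under 149.7 on the vehicle chip, at 132.7, 144.1 and 128.1. Each distance rests on 3 differences that share 1 vehicle chip, and the more a pattern departs from 0, the fewer genes lie near it.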

How the data were processed

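The deposited table gives, for each of 15866 probe sets, a linear intensity on every chip. Which algorithm and scaling target made these intensities is not stated in the labels or headers used here. RNA was extracted with a Qiagen kit and labelled as biotin cRNA, per the labels' protocols. Detection calls were not used here.

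Values entered the fit as log2(signal + 16), not normalized again, so folds of dim genes are understated. Probe sets with a mean signal under the 40th percentile (149.7) were left out of the test. limma 3.58.1 in R 4.3.3 (lmFit, eBayes with a trend) compared 3 treated chips with 1 vehicle chip in two-sided tests, adjusted by Benjamini-Hochberg over 9520 probe sets. The single vehicle chip is taken to have the spread of the treated ones (2 residual and 10.7 prior degrees of freedom). That was not tested, and the pools were unequal, with 8 rats on the vehicle chip and 2 on each treated chip. The number of chips limits precision. Intervals cover 95%. The script was tested on simulated data.

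Probe sets were named by the platform annotation, updated by Entrez ID through the GRCr8 gene table (12748 of 12783 matched); 312 named several genes and 2771 none. In lists a gene's brightest probe set stood for it. The text names all members, the called genes and the 3 smallest p among tested genes of each of 17 lists, and the 5 nearest genes of each tested member. Named outside that rule, after their values were seen, were Cdh17, Alpi, Muc13, Cdx2, Mb, Tnni3, Cpt1a, Cfd, Scd, Car3, Cidea, Plin1, Lep, C1qc, Cd68, Cd14, Aif1, Krt5, Sbsn, Evpl, Tgm1, Ivl, Lpl, Anpep, Dpp4, Slc5a1, Slc15a1, Treh, Sox10, Fabp9, Fabp12, Rbp2, Cd36, Acsl5, Apob, Apoa4, Ppara, Hnf4a, Plin2 and the genes under other observations. Pck1 was likewise named after its values were seen. The members and lists were chosen with earlier results of these data known. Alternatives changed the pseudocount, filter, scaling, moderation and set of pools; the filter on mean log2 values was added after seeing the data.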

Additional observations from a re-analysis of the deposited data

How the results depend on the processing

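Against 8 calls over all probe sets, limma called 5 with a pseudocount of 64, 4 with quantile normalization, 5 with centring on the 75th percentile and 13 with robust moderation. It called 0 without a filter (776 with an unadjusted p under 0.05) and 0 without a trend (456 unadjusted), and 23 to 52 when a treated pool was left out. With a pseudocount of 1, a filter at the 60th percentile or the filter on mean log2 values it called 8, 11 and 10. Fabp2 kept its log2 difference of 1.28 and passed with the 60th percentile filter (limma adjusted p = 0.0317), robust moderation (0.0269) and the filter on mean log2 values (0.0475), and with a difference of 1.195 to 1.42 when a pool was left out. It did not pass with either pseudocount, no filter, quantile normalization, centring or moderation without a trend (limma adjusted p from 0.0582 to 0.556). The log2 difference of Fabp1 ran from -0.39 to 0.13 and that of Fabp3 from -0.185 to 0.02 when a pool was left out, turning positive without pool 1 and without pool 3. Fabp4 and Fabp5 kept their direction and stayed above the threshold in all 12 alternatives. Calls among the squamous genes numbered 5 and among the intestinal genes 1, and both fell to 0 without a filter; the cause was not tested. Fabp6 and Fabp7 were fitted only without a filter. No paired analysis was possible because the vehicle group has 1 chip and the groups share fewer than 2 replicate numbers. Dim signals limit Fabp1, Fabp6 and Fabp7.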

Other observations

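Several genes of the lists that lay under the filter, and so were not tested, stood on 1 side of the vehicle chip on every pool. They were picked after their values were seen, and none passed in the fit without a filter. Lipf, the gastric lipase that releases the fatty acids of the diet, had 22.1 on the vehicle chip and 79.8, 112.7 and 87.8 on pools 1, 2 and 3. Slc10a2, the bile acid importer of the ileum whose cargo Fabp6 carries, had 17.7 against 116.3, 57.6 and 155.3. Acadsb, a dehydrogenase of branched short-chain acyl-CoA, had 90.1 against 17.2, 20.1 and 34.5, and Mybpc3, a cardiac sarcomere protein, had 25.9 against 239.0, 151.7 and 68.0. Their limma adjusted p without a filter lay between 0.978 and 0.9798.

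Krt4, found in moist stratified epithelia, measured 134.9 on the vehicle chip, 363.0 on pool 1 and 23.0 and 14.4 on pools 2 and 3, whereas Krt1, Krt5, Krt10, Krt13, Krt14 and Krt15 were above the vehicle chip on every pool. It lay under the filter and was not called without it (limma adjusted p = 0.9996).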
